A study of Bos taurus with 8 samples.

Results

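The genes described here are the factors that carry out initiation and elongation of translation. They were taken as all genes whose platform symbol begins with EIF or EEF and a digit, without EIF2AK2. The rule matched 58 of the 15215 genes with a symbol on the array, through 87 probes. Each gene was read by its brightest probe, and a gene was tested when that probe had a mean log2 intensity of 7 or more. This left 57 of the 58, and EIF4E1B, a cap-binding protein of oocytes, stayed under the filter with probes at 6.85 and 6.96. Of the 57, 9 were not above the negative controls on every array, and their ratios are limited by background. These were EIF4G3, EIF4EBP1, EEF1A2, EIF5A2, EIF1AY, EIF2B1, AGO1, AGO2 and AGO3.

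Granulosa cells, which line the follicle from inside and make oestradiol, had been scraped from dominant follicles over 9 mm in diameter on ovaries of Holstein cattle from a slaughterhouse. The study placed follicles by flow cytometry of DNA content among growth stages, of which the plateau phase (growth has slowed) and the atretic phase (the follicle regresses) are compared here. RNA was amplified, labelled and hybridised to 8 two-colour EmbryoGENE arrays, each with an atretic and a plateau follicle, on 2 slides of opposite dye orientation. Arrays of equal position on both slides were averaged, which gave 4 pairs of follicles. Each value is a log2 ratio turned so that it is positive where the atretic follicle was higher. The reproductive status of the animals was unknown and nothing ties the follicles to separate cows, so p-values measure only the spread between these samples.

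Initiation begins when the eIF4F complex binds the capped end of an mRNA: eIF4E holds the cap, eIF4G is the scaffold, and the helicase eIF4A, helped by eIF4B, unwinds the leader. The small ribosomal subunit arrives with the many-subunit factor eIF3 and with eIF2, which brings the initiator tRNA and is recharged with GTP by eIF2B. Elongation is driven by eEF1A, which delivers each tRNA, and eEF2, which moves the ribosome along. Several of these mRNAs begin with a 5' terminal oligopyrimidine tract (TOP), as do those of ribosomal proteins, and in mammals their translation is controlled by mTORC1, a kinase that senses nutrients and growth factors.

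One member, EIF2B2, the beta subunit of eIF2B, had been used by the study as a reference gene for its qRT-PCR. The primers with which it was measured are written 5' to 3' in lower case.
EIF2B2 forward: gaactcatactctagcactgg
EIF2B2 reverse: gtagatgtaggaaggtgcatt

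Before the results, 1 follicle has to be set apart. The plateau follicle of pair 3 was high in most stroma markers and low in most granulosa markers. Among the 8 fibroblast and stroma markers, TCF21 was instead at its lowest there, at 8.29, against 8.80 to 10.89 elsewhere. The others of that list were at their highest there. The summed level of a list is the log2 of its added intensities, so the brightest genes of the list largely set it. For the 8 fibroblast and stroma markers it was 17.2 in the plateau follicle of pair 3. It was 11.9 to 12.9 in the other plateau follicles and 12.3 to 13.2 in the atretic ones. The summed level of 8 granulosa markers was 13.9 in the plateau follicle of pair 3. In the other plateau follicles it was 15.7 to 17.6, and in the atretic ones 17.0 to 17.6. The collagen COL1A2 was at 15.83 in that follicle, at 7.36 to 8.90 in the atretic follicles and at 7.93 to 9.998 in the other plateau follicles, and the inhibin subunit INHA was at 11.50 there and at 13.97 to 15.97 elsewhere. The summed level of 6 macrophage and leukocyte markers was 12.38 and 12.97 in the plateau follicles of pairs 2 and 3 and 10.08 to 11.56 in the other 6 follicles, and all 6 had means below 0. The summed level of 5 smooth muscle and pericyte markers was 15.61 in the plateau follicle of pair 3 and 12.16 to 13.39 elsewhere. In that follicle ACTA2 was at its highest (15.59) and MYH11 at its lowest (6.97). The mean log2 ratio of these 5 markers in pair 3 was 0.05. In the plateau follicles of pairs 2 and 3, aromatase (CYP19A1) was at 7.18 and 7.51 and AMH at 7.33 and 7.16, near the 95th percentile of the negative controls (7.004 to 7.316). Not all granulosa markers were low in them: GATM was at 12.45 and 11.19, against 6.84 and 7.34 in the other plateau follicles. FSHR was at 9.66 in the plateau follicle of pair 2 but lowest, at 7.92, in that of pair 3, against 9.62 to 11.66 in the remaining follicles. The summed level of 5 theca markers was 15.73 in the atretic follicle of pair 1 and 10.95 to 13.97 in the other atretic follicles. It was 12.46 to 15.83 in the plateau follicles, where STAR alone was at 15.76 in that of pair 3. Of the 5, the theca enzyme CYP17A1 was at 9.41 in the atretic follicle of pair 1. It was at 7.01 to 7.52 in the other atretic follicles and at 7.06 to 8.40 in the plateau follicles. The study removed an atretic sample from its qRT-PCR because high CYP17A1 pointed to theca contamination. Whether that sample is the atretic follicle of pair 1 is not given. No marker of these lists passed the threshold used below. The part of these differences in the results below was not tested, and the counts are therefore also given without pair 3. In bulk RNA, fewer cells of a type and less RNA per cell cannot be told apart.

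By the study's own limits (1.5-fold, unadjusted p of 0.05, here in limma), 8 of the 57 translation factors were higher in atretic follicles and 0 were lower. Of all 12942 genes tested 2.84% were higher and 2.91% lower by the same rule. The 8 were the helicase EIF4A2 and its partner EIF4B, the eIF3 subunits EIF3E, EIF3M and EIF3K, the eIF2 subunit EIF2S3, and the elongation factor subunits EEF1G and EEF1B2. Below, a gene rose or fell when its brightest probe passed this threshold. No probe of any gene passed an adjusted p of 0.05 (0% of 33523 probes, lowest adjusted p = 0.166 in limma). An unadjusted p under 0.05 in limma was seen for 9 of the 57 members and for 1242 of all 12942 genes. Each of the 8 was read by 1 probe, so no second probe bears on it.

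Over the whole family the median log2 ratio was 0.01, against 0.00 over all genes, 31 of 57 means lay above 0, and the means ran from -0.60 (EIF2AK4) to 1.09 (EIF4A2). Medians in pairs 1 to 4 were 0.18, 0.02, 0.01 and 0.27, with 36, 30, 29 and 38 of the 57 above 0. Of the 57, 8 were above 0 in all 4 pairs (8.55% of all genes were) and 2 were below 0 in all of them (8.35% of all genes). Without pair 3, the family had 6 higher and 0 lower members, where 2.25% and 2.63% of all genes were called, and 40 of its 57 means lay above 0, with a median of 0.10. Of the 8 genes, EIF4B, EIF3E and EIF3M then missed the threshold and EEF1E1 passed it. Without pair 1 the count was 6, with EIF3E, EIF3K and EIF3M lost and EIF3F added. Without pair 4 the count was 5, namely EEF1A1, EEF1B2, EIF2S3, EIF3K and EIF4A2. Of all genes, 3.6% were higher without pair 1 and 2.89% without pair 4.

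**Figure D1:**
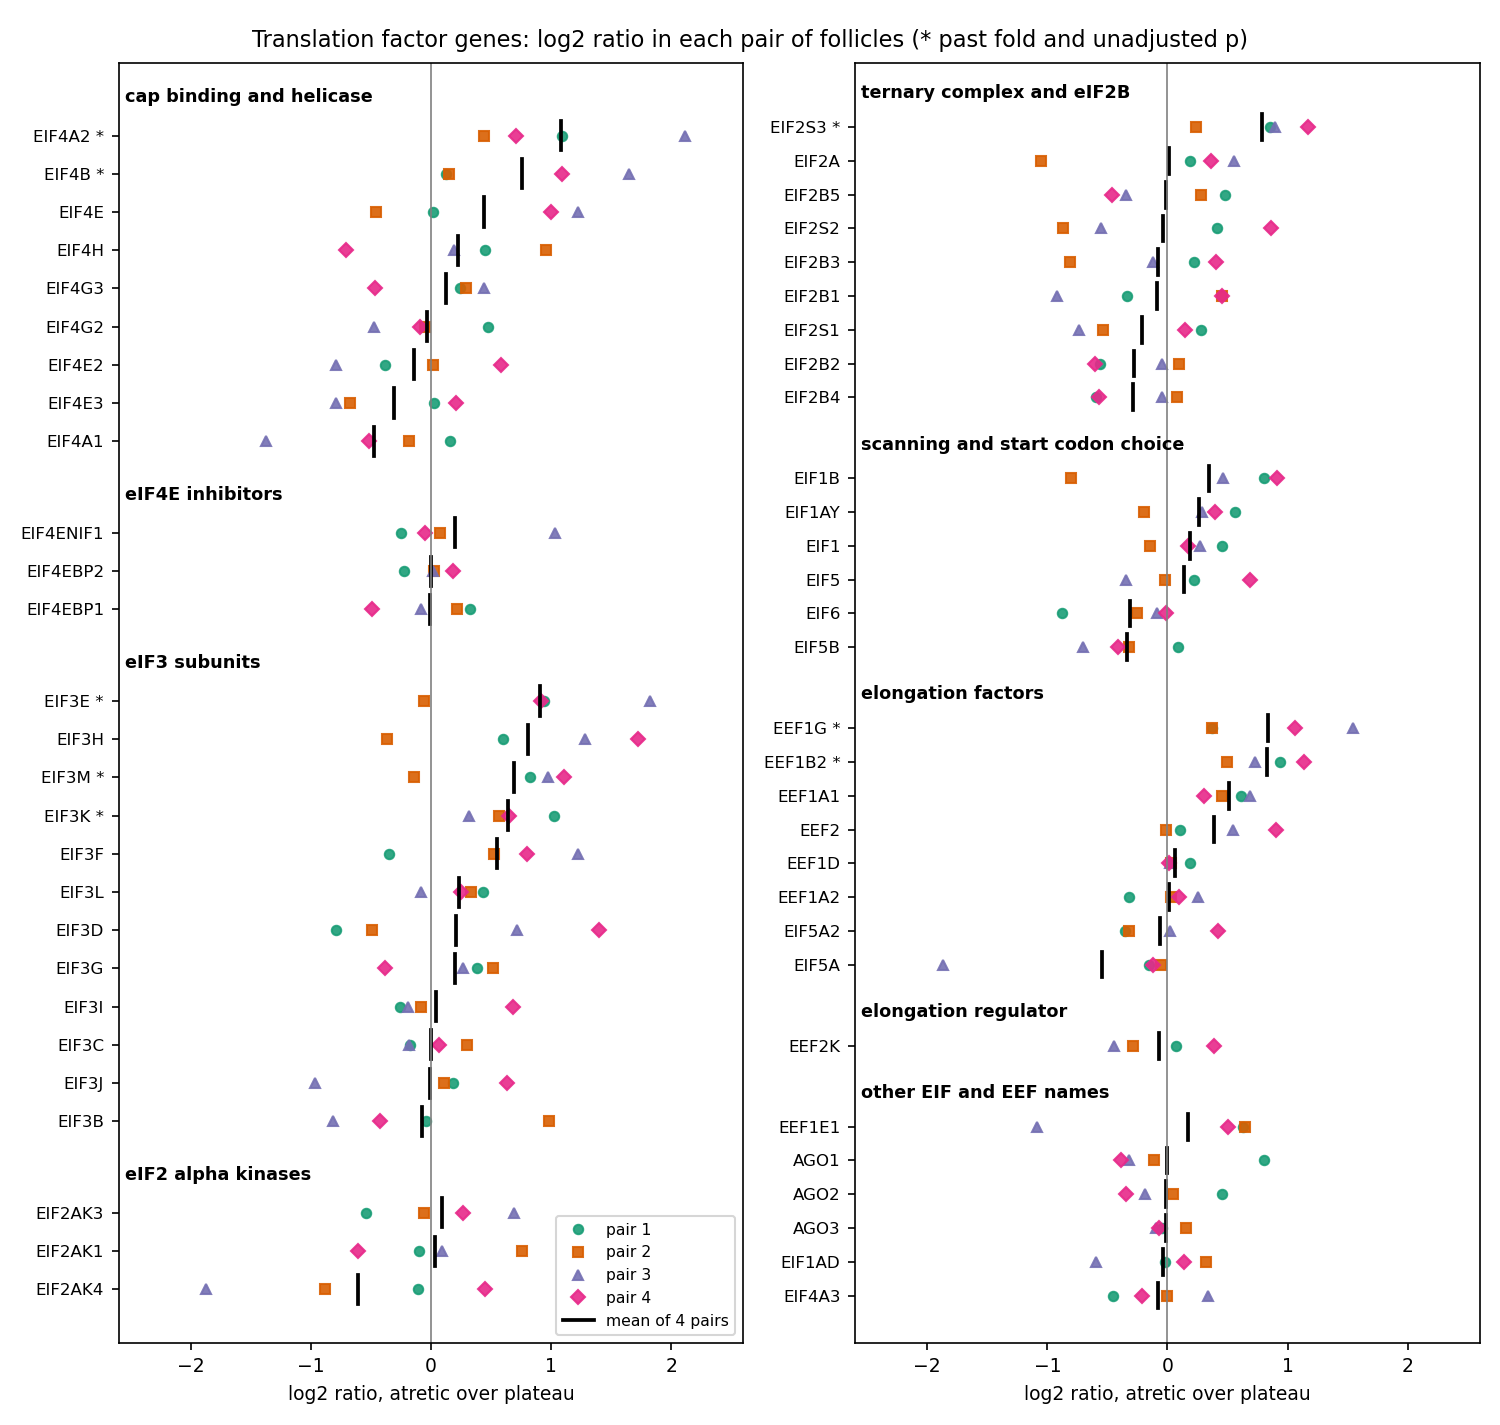
Log2 ratio of atretic over plateau for the 57 translation factors, grouped by role, with 1 symbol per pair of follicles and a bar at the mean of the 4 pairs. Stars mark the 8 genes past the fold and unadjusted p. The values of pair 3 lie farthest out in both directions for many genes, as for EIF4A2 at 2.11 and EIF2AK4 at -1.87.

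Among the genes of cap binding and unwinding, 2 of 9 rose. EIF4A2, 1 of the 2 eIF4A helicases of initiation, had log2 ratios of 1.09, 0.44, 2.11 and 0.70 in pairs 1 to 4 (probe EMBV3_39158). The 4 atretic follicles lay between 11.50 and 11.72 on the log2 intensity scale and the plateau follicles between 9.61 and 11.23, so the groups did not overlap. Non-overlapping levels with the atretic group above were seen for 3 members and for 1.55% of all genes. The mean difference was 1.09 ± 0.73 (SD, n = 4), a 2.12-fold higher level (unadjusted p = 0.0123, adjusted p = 0.482 in limma), and 0.74 without pair 3. EIF4A2 was positive on all 8 arrays and kept the threshold without any single pair.

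EIF4A1, the other helicase of this pair, had ratios of 0.15, -0.18, -1.37 and -0.51. Its mean was -0.48 ± 0.65 (unadjusted p = 0.128 in limma), and it was the lowest of the group. The difference between the log2 ratios of EIF4A2 and EIF4A1 was 0.93, 0.62, 3.48 and 1.22 in pairs 1 to 4, above 0 in 4 of 4 pairs (mean 1.56, n = 4, a difference chosen after the values were seen). The widest of these differences was that of pair 3.

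EIF4B, the cofactor that stimulates the helicase, had ratios of 0.13, 0.15, 1.65 and 1.09 (probe EMBV3_27422). The first 2 pairs differed little and the last 2 by over 1 log2 unit, and the levels of the groups overlapped. Its mean was 0.75 ± 0.74 (1.69-fold, unadjusted p = 0.0485, adjusted p = 0.657 in limma), close to the threshold. EIF4B was at 0.46 without pair 3 and at 0.64 without pair 4 and missed the threshold in both cases. Of the others, the cap-binding protein EIF4E was at 0.44 ± 0.80 and its 2 further probes at 0.38 and 0.45. EIF4H, EIF4G3, EIF4G2, EIF4E2 and EIF4E3 lay between -0.31 and 0.22. The 3 proteins that hold eIF4E back, EIF4EBP1, EIF4EBP2 and EIF4ENIF1, were at -0.01, 0.00 and 0.20, with 0 past the threshold.

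The eIF3 subunits were the largest group, with 3 of 12 subunits higher, 0 lower and 10 of 12 means above 0 (8 without normalization between arrays). The group median was 0.22, with pair medians of 0.29, 0.20, 0.29 and 0.66. EIF3E had ratios of 0.94, -0.06, 1.82 and 0.92 (probe EMBV3_30668). Its atretic follicles were close together at 15.40 to 15.53, while the plateau follicles spread from 13.70 to 15.52, with that of pair 2 inside the atretic range. The mean was 0.91 ± 0.77 (1.88-fold, unadjusted p = 0.0284, adjusted p = 0.600 in limma). Leaving out pair 1 (0.89), pair 3 (0.60) or pair 4 (0.90) ended the call of EIF3E.

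EIF3M had ratios of 0.83, -0.14, 0.97 and 1.10 (probe EMBV3_10473), again with pair 2 apart from the other 3 pairs. Its mean was 0.69 ± 0.56 (1.61-fold, unadjusted p = 0.0296, adjusted p = 0.600 in limma), with overlapping levels, and its call also ended when pair 1 (0.65), pair 3 (0.60) or pair 4 (0.55) was left out. EIF3K was positive in every pair, at 1.02, 0.57, 0.31 and 0.65 (probe EMBV3_40048). Its mean of 0.64 ± 0.29 (1.56-fold, unadjusted p = 0.00674, adjusted p = 0.382 in limma) was just past the fold, and it missed the fold without pair 1 (0.51). Without pair 3 EIF3K was at 0.75. The levels of EIF3K in the 2 groups overlapped narrowly, since the plateau follicle of pair 2 (15.06) reached the atretic follicle of pair 1 (15.06).

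EIF3H had the second highest mean of the group, 0.81 ± 0.91, from ratios of 0.60, -0.37, 1.28 and 1.72, and did not pass (unadjusted p = 0.0689 in limma). Just outside the fold lay EIF3F at 0.55 ± 0.66, with ratios of -0.35, 0.53, 1.22 and 0.80. Its further probes read 0.54, 0.54 and 0.06, the last from the dimmest of the 4. The remaining subunits, EIF3L, EIF3D, EIF3G, EIF3I, EIF3C, EIF3J and EIF3B, lay between -0.07 and 0.23. The lowest of them, EIF3B, a core subunit, had ratios of -0.04, 0.98, -0.81 and -0.42. The subunits thus did not move alike within a pair: in pair 3 they ran from -0.97 (EIF3J) to 1.82 (EIF3E).

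**Figure D2:**
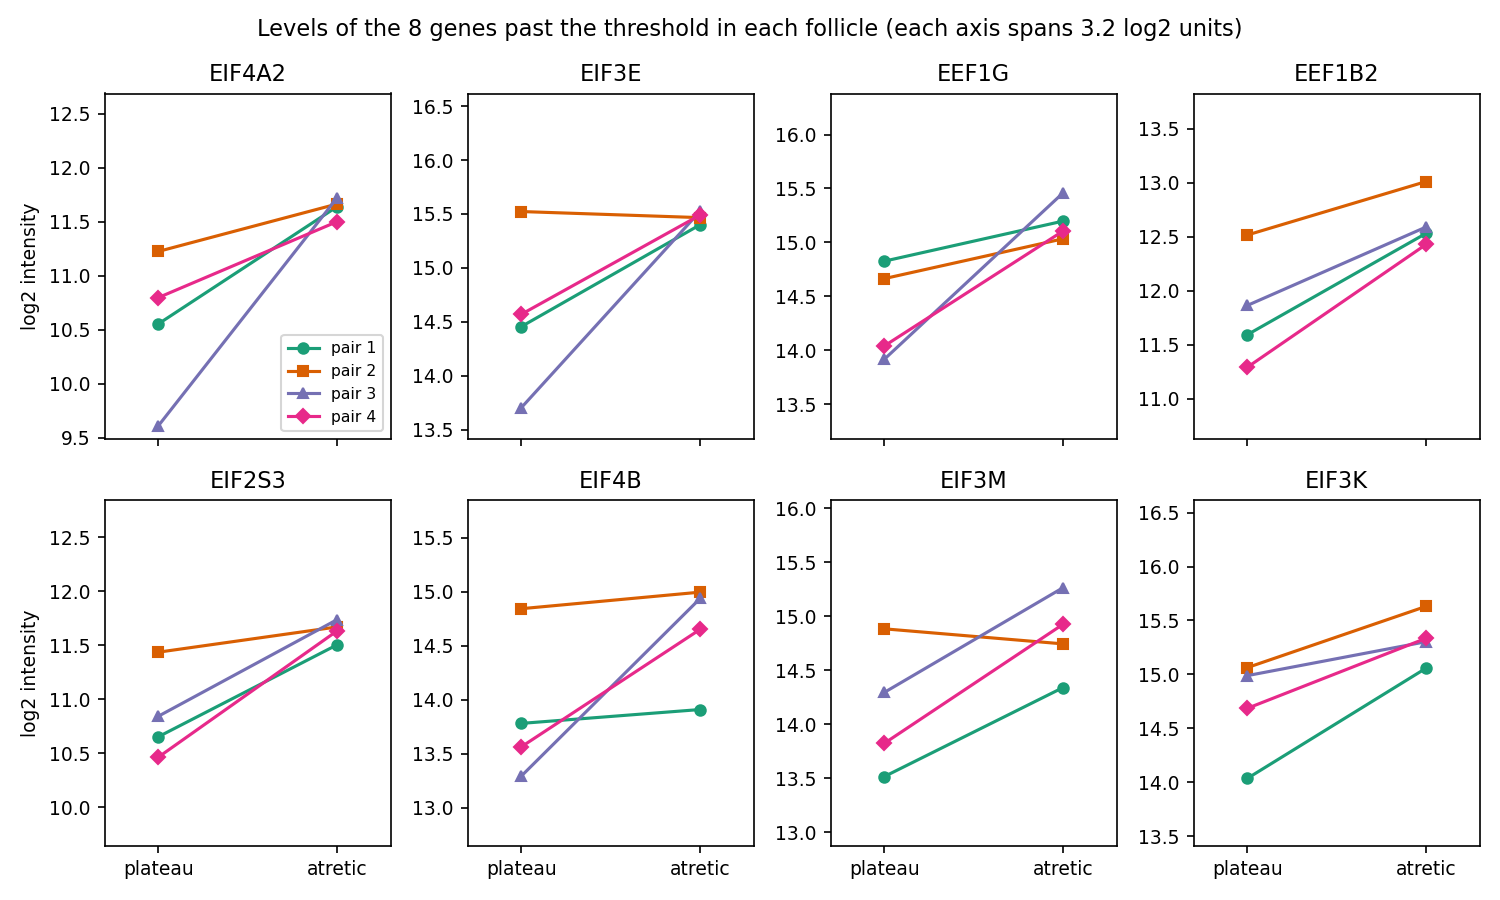
Log2 intensity of the 8 genes that rose, in the plateau and the atretic follicle of each pair, with lines joining the follicles that shared arrays. For EIF4A2, EIF3E, EIF4B and EEF1G the plateau follicle of pair 3 is the lowest of the 8 follicles, and the plateau follicle of pair 2 is the highest plateau follicle for 7 of the 8 genes, all but EEF1G.

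The factors of scanning and start codon choice had 0 of 6 members past the threshold. EIF1B, a paralogue of eIF1, had the highest mean of the group, with ratios of 0.81, -0.80, 0.47 and 0.91 (0.35 ± 0.79). EIF5B, the GTPase that joins the ribosomal subunits, had the lowest, with ratios of 0.09, -0.32, -0.70 and -0.41 (-0.34 ± 0.33, unadjusted p = 0.0824 in limma). EIF1 itself was at 0.19 ± 0.25 and EIF5 at 0.14 ± 0.43. EIF1AY was at 0.26 ± 0.32 on a dim probe (7.14), above the negative controls in 6 atretic and 2 plateau readings. EIF6, which keeps free large subunits from joining, was at -0.31 ± 0.39. A dimmer probe of EIF6 read -0.04.

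Of the 9 genes of the eIF2 and eIF2B group, 1 rose. EIF2S3, the GTP-binding gamma subunit of eIF2, had ratios of 0.85, 0.23, 0.90 and 1.17 (probe EMBV3_25186). Its atretic follicles lay between 11.50 and 11.74 and its plateau follicles between 10.46 and 11.44, so the groups did not overlap. The mean was 0.79 ± 0.40 (1.73-fold, unadjusted p = 0.00601, adjusted p = 0.363 in limma), 0.75 without pair 3, and EIF2S3 kept the threshold without any single pair. Its partner subunits in the same complex did not pass: EIF2S1, the alpha subunit, was at -0.21 ± 0.50 and EIF2S2, the beta subunit, at -0.04 ± 0.81.

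The 5 eIF2B subunits all had means below 0, between -0.28 and -0.01, and 0 of them passed. The reference gene EIF2B2 had ratios of -0.56, 0.10, -0.05 and -0.60 (probe EMBV3_38516), lower in pairs 1 and 4 and near 0 in pairs 2 and 3. Its mean was -0.28 ± 0.36 (unadjusted p = 0.152 in limma), with a 95% interval of -0.70 to 0.14 that spans 0 and reaches past the 1.5-fold bound. The groups overlapped, with atretic follicles at 9.71 to 10.08 and plateau follicles at 9.90 to 10.58. The 2 other probes of EIF2B2 read -0.47 ± 0.16, below 0 in all 4 pairs (unadjusted p = 0.00868, adjusted p = 0.428 in limma), and 0.03 ± 0.09. This was the widest range over probes of any member, 0.50. SF3A1, the splicing factor gene used as the other reference, was at 0.15 ± 0.22. EIF2B4, the delta subunit and the lowest of the group, had ratios of -0.60, 0.08, -0.05 and -0.57, the same pattern over the pairs as EIF2B2.

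The 3 kinases that phosphorylate eIF2 alpha, and so limit initiation under stress, did not pass. The amino acid sensor EIF2AK4 (GCN2) had the lowest mean of all members, -0.60 ± 1.01, past the fold but with an unadjusted p of 0.179 in limma. Its ratios of -0.11, -0.88, -1.87 and 0.45 differed in sign, and it was at -0.18 without pair 3. EIF2AK3 (PERK) was at 0.09 ± 0.52 and EIF2AK1 (HRI) at 0.03 ± 0.56.

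Among the elongation factors, 2 of 8 rose and 0 fell. EEF1G, a structural subunit of the complex that recharges eEF1A with GTP, had ratios of 0.37, 0.37, 1.54 and 1.07 (probe EMBV3_06576). Its atretic follicles lay at 15.03 to 15.46 and its plateau follicles at 13.92 to 14.83, with no overlap. The mean was 0.84 ± 0.57 (1.79-fold, unadjusted p = 0.0150, adjusted p = 0.516 in limma), 0.60 without pair 3. Without pair 4 EEF1G was at 0.76 and missed the threshold.

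EEF1B2, a subunit that carries the exchange activity, had the most even rise, with ratios of 0.94, 0.50, 0.73 and 1.14 (probe EMBV3_34250). The mean was 0.83 ± 0.28 (1.77-fold, unadjusted p = 0.00185, adjusted p = 0.221 in limma), 0.86 without pair 3, and it kept the threshold without any single pair. Its levels overlapped because the plateau follicle of pair 2 (12.52) lay above the atretic follicle of pair 4 (12.43). EEF1D, the further exchange subunit, was at 0.06 ± 0.08, but its spots read 60000 or more, which is taken here as saturated, in 7 of 8 atretic and 4 of 8 plateau readings, so its difference has little room to show.

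EEF1A1, the GTPase that delivers tRNA, had even ratios of 0.62, 0.45, 0.69 and 0.30. Its mean of 0.52 ± 0.17 had an unadjusted p of 0.00659 in limma (adjusted p = 0.378) and stayed under the fold of 1.5. A dimmer probe of EEF1A1 read 0.76 ± 0.27 and passed. The translocase EEF2 was at 0.39 ± 0.42, and its dimmer probe, which also passed, read 0.60 ± 0.36. These dimmer probes are named because of their values. EIF5A, which relieves stalled peptide bond formation, had the lowest mean, -0.55 ± 0.88, from ratios of -0.15, -0.05, -1.86 and -0.12. It was near 0 outside pair 3 (-0.11 without it) and its dimmer probe read -0.07. EEF1A2, the eEF1A form of muscle and neurons, and EIF5A2 were at 0.01 and -0.06, and EEF2K, the kinase that inactivates eEF2, at -0.07.

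Genes named EIF or EEF for other reasons numbered 6, with 0 past the threshold. EEF1E1, a scaffold protein of the complex of tRNA synthetases, had the highest mean of these, 0.17 ± 0.84, with ratios of 0.63, 0.65, -1.09 and 0.51. Its dimmer probe read -0.18, -0.17, -1.05 and 0.23 (mean -0.29). The helicase EIF4A3, which belongs to the exon junction complex, was the lowest, with ratios of -0.45, -0.01, 0.34 and -0.21. AGO1, AGO2 and AGO3, the Argonaute proteins of small RNA silencing, were on the platform as EIF2C1, EIF2C2 and EIF2C3 and matched the rule by spelling only. They were at 0.00, -0.01 and -0.01, and without them 8 of 54 members rose and the median was 0.04.

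**Figure D3:**
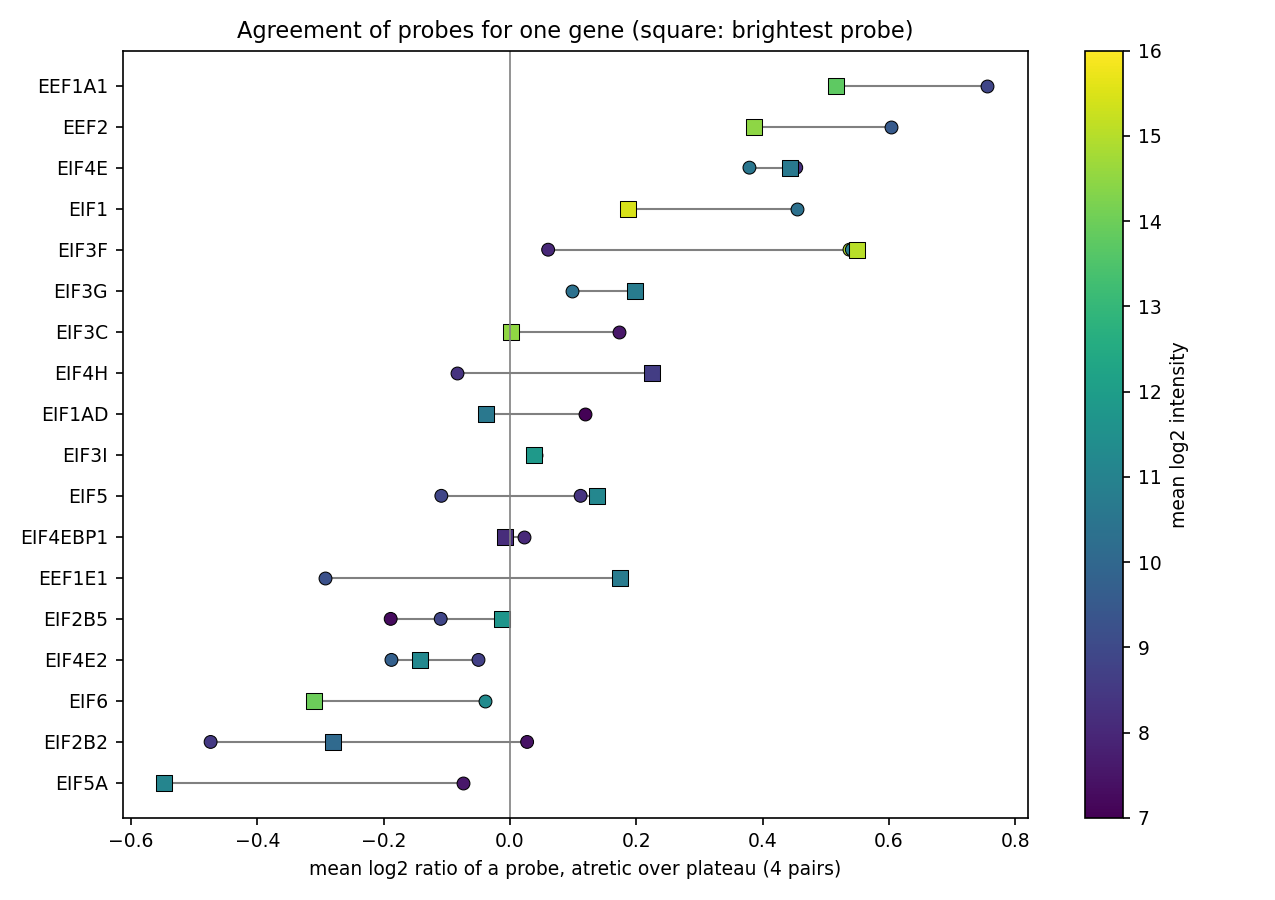
Mean log2 ratio over the 4 pairs for each tested probe of the 18 members with several probes, with squares for the brightest probe, circles for the others, and colour for the mean log2 intensity. In 12 of the 18 genes all probes had the same sign, and the range over the probes of a gene had a median of 0.23.

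The members that rose were bright. All 8 were among the 38 members whose mean log2 intensity reached 10 (21.1% of them), where 6.52% of all genes that bright were higher. Of the 11 members at 14 or more, 5 rose (45.5%), where 14.7% of all genes that bright did. Of the 27 from 10 to under 14, 3 rose (11.1%), where 5.63% of all such genes did. Of the 19 under 10, 0 rose, where 1.4% of all such genes did. Over all genes, too, a larger share of bright than of dim ones was higher, and the 353 genes of 14 or more had a median of 0.27. Falls were also more common among bright genes, at 5.5% for intensities of 10 or more and 4.82% for 14 or more, against 2.91% of all genes.

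**Figure D4:**
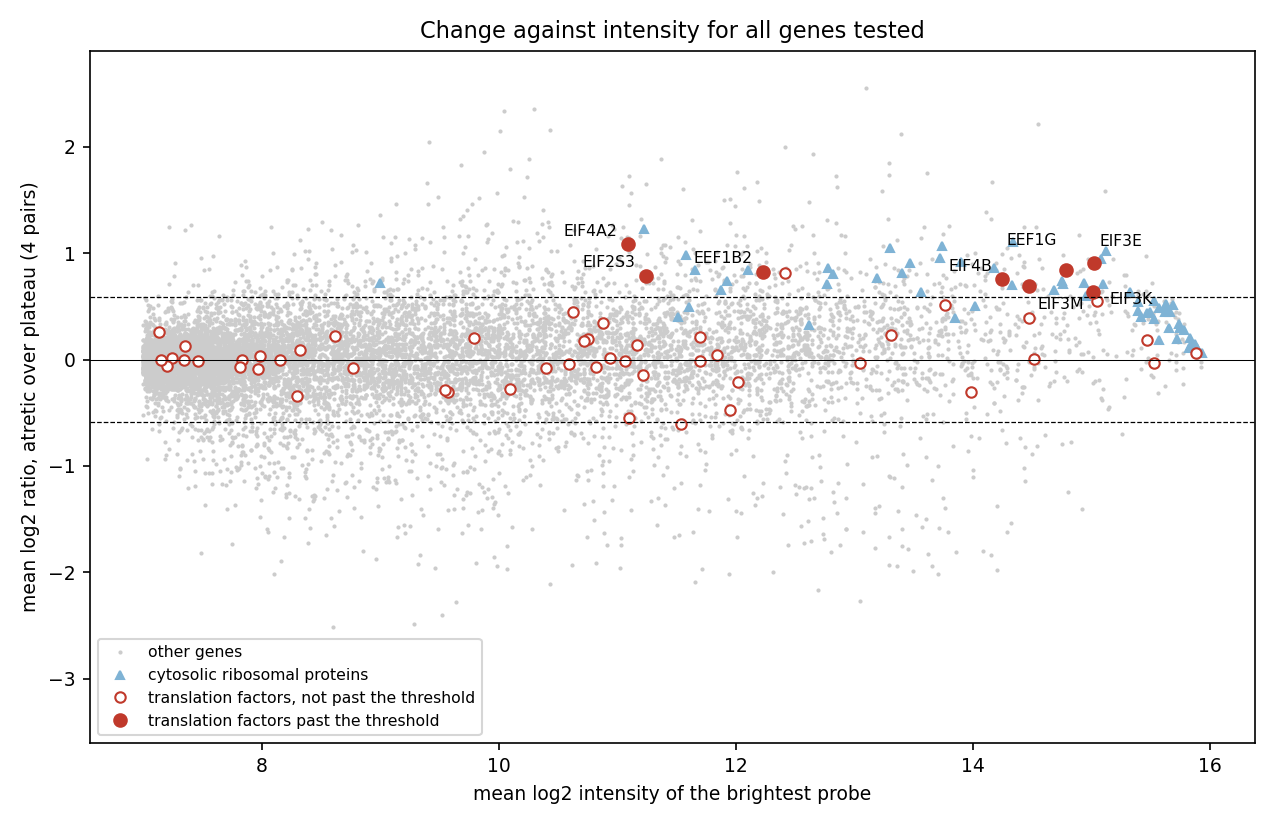
Mean log2 ratio of atretic over plateau against the mean log2 intensity of the brightest probe for the 12942 genes tested, with translation factors in red, cytosolic ribosomal proteins in blue and other genes in grey. Dashed lines mark the fold of 1.5. The 8 filled circles lie between intensities of 11.1 and 15.0.

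The members known from other mammalian cells to have TOP mRNAs were EEF1A1, EEF1B2, EEF1D, EEF1G, EEF2, EIF3E, EIF3F, EIF3H and EIF4B. All 9 had means above 0, except that EEF1D, the saturated probe, was at -0.07 without normalization between arrays. Of the 9, 4 rose, and their median was 0.75. The pair medians were 0.37, 0.15, 1.22 and 0.92. The other 48 members had 4 that rose, EIF4A2, EIF2S3, EIF3M and EIF3K, with 22 means above 0 and a median of -0.01. The 63 cytosolic ribosomal protein genes, which are TOP mRNAs as well, had 23 that rose and 0 that fell, 63 means above 0 (59 without normalization between arrays), a median of 0.54 and pair medians of 0.54, 0.08, 0.68 and 0.84. Of the 63 genes, 31 had saturated readings, 157 of 504 in atretic and 55 of 504 in plateau follicles, which limits the differences that could show. For the TOP factors and the ribosomal proteins, pair 2 gave the lowest median. Without pair 3 the medians were 0.46, 0.06 and 0.47, and 2 of 9, 4 of 48 and 17 of 63 genes rose. Fewer ribosomal proteins rose without normalization between arrays (15), with quantiles over gene probes alone (16) and without pair 4 (12). Of the 9 TOP members 6 were at an intensity of 14 or more, where rises were common among all genes. The difference between the sets was not tested. Further genes of translation, such as PABPC1 (-0.36) and RACK1 (0.94), were not sorted into TOP and other mRNAs. The sets here therefore do not cover every TOP mRNA. Mitochondrial ribosomal proteins, which were not counted as TOP mRNAs, had 2 of 77 that rose and a median of 0.02.

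**Figure D5:**
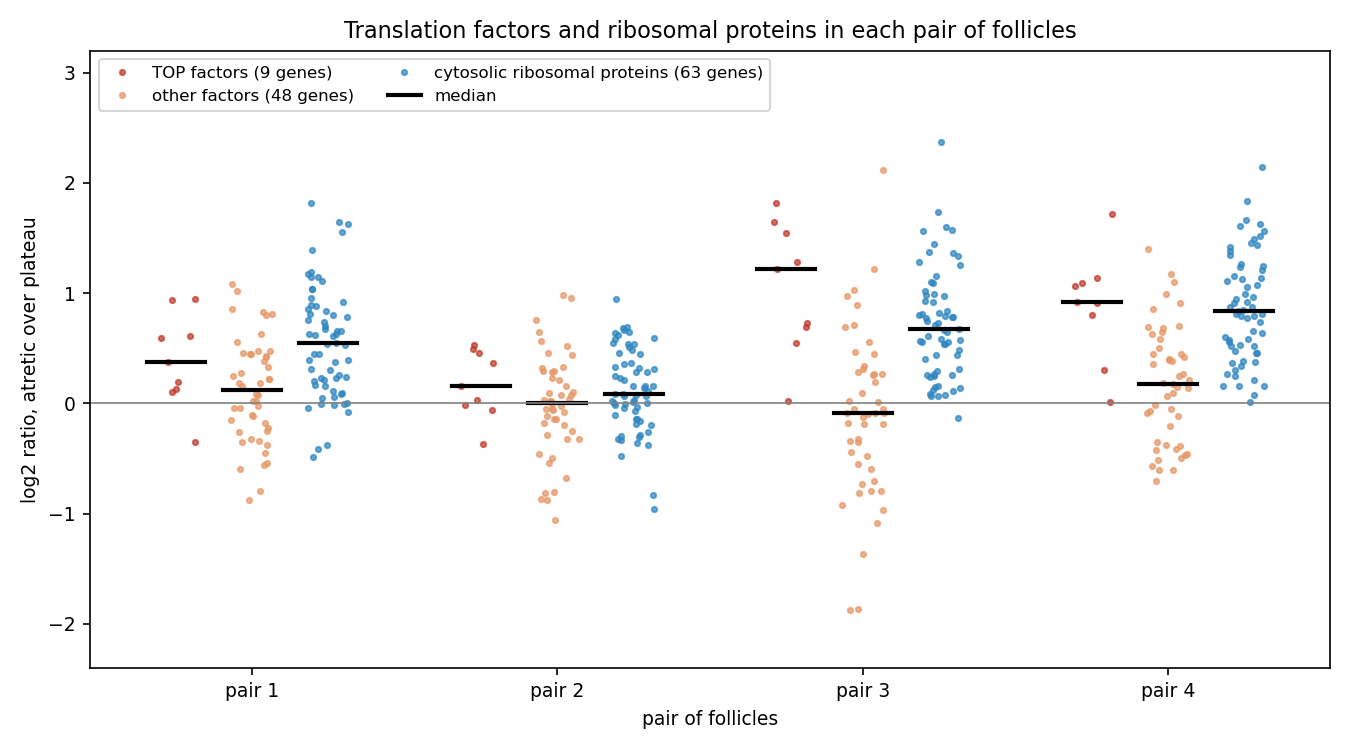
Log2 ratio of atretic over plateau in each pair of follicles for the 9 TOP factors, the 48 other factors and 63 cytosolic ribosomal proteins, 1 point per gene and a bar at the median. Above 0 lie 8, 6, 9 and 9 of the TOP factors, 55, 41, 62 and 63 of the ribosomal proteins and 28, 24, 20 and 29 of the other factors in pairs 1 to 4.

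Of 61 further genes of translation and its control, 2 rose and 3 fell, which is 3.28% and 4.92%. RACK1, a protein of the small subunit that docks signalling kinases, rose in every pair, with ratios of 0.64, 0.59, 1.56 and 0.97 (0.94 ± 0.45, unadjusted p = 0.00405, adjusted p = 0.305 in limma, and 0.73 without pair 3). Among 9 such regulators on the ribosome it was the 1 that passed, and the group median was 0.30. ASNS, the asparagine synthetase induced by ATF4, rose with ratios of 0.70, 1.497, 1.82 and 1.94 (1.49 ± 0.56, adjusted p = 0.178 in limma). It was the 1 rise among 8 genes of the integrated stress response, the programme that follows phosphorylation of eIF2. ATF4 itself was at -0.21 ± 0.67, its targets DDIT3, CHAC1 and TRIB3 at -0.34 ± 0.89, 0.34 ± 0.19 and -0.17 ± 0.23. IMPACT, an inhibitor of GCN2, fell by its brightest probe, with ratios of -0.18, -1.31, -0.96 and -0.19 (-0.66 ± 0.56, unadjusted p = 0.0344 in limma). Its 3 other probes read 0.17, 0.35 and -0.17, so the fall was not shared, and IMPACT missed the threshold without pair 2 (-0.45) or pair 3 (-0.56).

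Of 16 genes of mTORC1 and MNK signalling, which act on eIF4E and on TOP mRNAs, 1 fell and the median was -0.05. This was DDIT4, an inhibitor of mTORC1, with ratios of -0.67, -0.82, -0.22 and -2.57 (-1.07 ± 1.03, unadjusted p = 0.0409 in limma). Pair 4 stood far from the others, and without it DDIT4 was at -0.57. It also missed the threshold without pair 1 (-1.20) or pair 2 (-1.15). MTOR was at -0.06 ± 0.30, LARP1, which binds TOP tracts, at -0.29 ± 0.35 and the S6 kinase RPS6KB1 at 0.04 ± 0.52. GFM1, the mitochondrial elongation factor G, was the 1 of 9 mitochondrial factors that fell, with ratios of -0.37, -0.15, -1.38 and -0.66 (-0.64 ± 0.54, unadjusted p = 0.0337 in limma). Its other probes read -0.52 and -0.10, and its call ended when pair 1 (-0.73), pair 3 (-0.39) or pair 4 (-0.63) was left out. Termination and recycling, poly(A) binding and modification of eEF2 and eIF5A had 0 of 7, 0 of 6 and 0 of 6 past the threshold. The largest means in them were those of the release factor GSPT1 (-0.48 ± 0.74), of PAIP2, an inhibitor of poly(A) binding protein (0.40 ± 0.84), and of the diphthamide synthesis gene DPH3 (-0.50 ± 1.03). In poly(A) binding, 5 of 6 means lay above 0. The remaining gene, the poly(A) binding protein PABPC1, was at -0.36 ± 0.44 on a probe of intensity 15.08.

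Slide and dye orientation cannot be told apart, and the 2 slides were read side by side. On the slide with the atretic RNA in Cy5, 9 members rose, with EIF3F and EIF3H added and EIF4B lost. On the other slide 7 rose, with EEF1B2 lost. Of all genes, 5.08% were higher on the first of these slides alone and 4.21% on the other. The means of the 8 genes on the 2 slides were 1.18 and 0.99 for EIF4A2, 0.94 and 0.64 for EIF2S3 and 1.07 and 0.58 for EEF1B2, the last with the widest gap. With both dye orientations averaged, quantile normalization between arrays decided several calls: without it 5 of the 8 kept the threshold, namely EEF1B2, EEF1G, EIF2S3, EIF3E and EIF4A2, and with quantiles taken over gene probes alone, an alternative added after the data were seen, 4 did. Of all genes, 2.12% and 2.45% were higher in these fits.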

How the data were processed

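The deposited files hold a median spot intensity and a median local background per array and channel from the authors' image analysis. The authors also deposited normalized log2 ratios (background subtracted, then loess and quantile), with medians of -0.0289 to -0.00543, which correlated at 0.990 to 0.995 with Cy5 over Cy3 computed here. They served as an alternative. The genome build was not given in the sources used here.

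Intensities were corrected by normexp (offset 50), in place of the plain subtraction the methods name, then by loess in each array (span 0.3, control and marked spots at weight 0) and by quantiles across arrays. Median spot intensities were 162 to 283 in Cy5 and 205 to 374 in Cy3, and the local backgrounds were 39 to 71 and 21 to 31. Precision is limited by the number of arrays.

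Labels do not say that equal positions on the 2 slides hold the same follicles. Deviations from the slide mean correlated at 0.761 to 0.866 for the 4 equal positions and at -0.488 to -0.0326 for the 12 others, so equal positions were averaged. A limma model (lmFit, eBayes) was fitted to the 33523 gene probes above the intensity limit, with Benjamini-Hochberg adjustment over all of them. Platform symbols were updated from gene records of assembly ARS-UCD2.0, which renamed 5 members. EIF3C, now EIF3CL, is printed as on the platform. Named genes were those past the threshold, EIF2B2, the highest and lowest of each role group of 4 or more and, in other lists, those past the threshold or else the largest mean. The members, lists and roles were chosen with earlier results of these data known. The fit was tested on simulated data. Primer sequences came from the study's supplement. Alternatives changed background correction, normalization, filters, pairing, slide, source of values, variance model, probe choice and fold, removed probes of a shared profile, and left out each pair. The versions were Python 3.11.15 with matplotlib 3.10.9, and R 4.3.3 with statmod 1.5.0 and limma 3.58.1.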

Additional observations from a re-analysis of the deposited data

Results flagged for a closer look

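In 3 of 63 genes tested, 1 pair of follicles lay far from the other 3, by Dixon's gap over the 4 pairs. Chance flags about 1 in 20 such groups. EIF5A read -1.86 in pair 3 and -0.15 to -0.05 in the other pairs. EEF1E1 read -1.09 in pair 3 and 0.51 to 0.65 in the others by its brightest probe. Its dimmer probe read -1.05 in pair 3 and -0.18 to 0.23 in the others, so both probes were low in pair 3 and differed in the other pairs. The plateau follicle of pair 3 is the one with most stroma markers high and most granulosa markers low. The part of that follicle in these values was not tested. EEF1D read 0.19 in pair 1 and 0.01 to 0.03 in the others, on a probe that was saturated in 11 of 16 readings.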

How the results depend on the processing

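The number of members higher at the study's threshold was 8 and stayed within 1.5 times that under most alternatives. It was 5 without normalization between arrays. Quantiles of the average intensity leave the ratios as they are without it and so gave the same 5. The number was 4 with quantiles over gene probes only (chosen after seeing the data), and 1 at a fold of 2. It was 5 to 10 when 1 pair was left out, the lowest without pair 4. Of all genes, 2.25% to 4.2% were higher when 1 pair was left out. The number of members lower was 0 in every alternative run. Members past an adjusted p of 0.05 numbered 0. They numbered 6 with the 8 arrays taken as independent. That fit counts each pair of follicles on both slides as separate samples, which they are not, so its p-values are too small. With the pair as a replicate block they numbered 4 (consensus correlation 0.445, 549 probes past). With the replicate block and a dye term they numbered 2 (436 probes past). The median of the members ran from -0.01 to 0.10 over all alternatives. Other translation genes higher numbered 2, but 4 on the slide with atretic RNA in Cy5, 5 with no fold, 1 at a fold of 2 and 2 to 6 with 1 pair left out. Those lower numbered 3, but 1 on that slide, with probes averaged per gene, at a fold of 2 and with any 1 pair left out. For these counts the cause was not tested.

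Of the 8 genes that rose, EIF4A2, EIF2S3 and EEF1G kept the threshold in all 18 alternatives that left out no pair and kept the fold at 1.5, EEF1B2 and EIF3E in 17, EIF3K and EIF3M in 15 and EIF4B in 11. Among the 18, no normalization between arrays and quantiles of the average intensity give the same ratios and are not separate checks. At a fold of 2 only EIF4A2 was called. No gene named here was called in opposite directions by 2 alternatives. Probes near a log2 intensity of 7 lie at the level of the negative controls (mean 6.54 to 6.87), so changes of the dimmest members were not detectable. No member probe correlated above 0.9 with the profile over channels that 158 tested probes share.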
